A study of Mus musculus with 12 samples.

Results

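The subject is 79 nuclear genes that encode subunits of the mitochondrial respiratory chain (complexes I to IV) and of ATP synthase (complex V), measured in mouse pancreas on 12 Affymetrix arrays. They were chosen by name: the symbols of the Nduf, Sdh, Uqcr, Cyc1, Cox4 to Cox8 and Atp5 subunit families, on probe sets that the platform annotation gives a single gene. Of 12335 genes named in this way on the array, 79 met the rule, with 148 probe sets: 33 of complex I, 4 of complex II, 9 of complex III, 16 of complex IV and 17 of complex V. A gene was read by the brightest of its probe sets. Each gene was kept in the complex its name gives, so Ndufa4, now known as a subunit of complex IV, counts under complex I. Subunits encoded in the mitochondrial genome lie outside the rule, and Ndufa11, Ndufb4 and Ndufs6, whose probe sets carry several symbols, were not analysed here.

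The study compared 4 groups of 3 pancreata each, 1 array per pancreas, called biological replicates in its design text. The mice were males of 2 to 4 months, either wild type C57BL6 or Mist1KO, with no strain background named for the latter. They received saline or caerulein every hour over 4 hours and were killed at the end of that time, and about 10 µg of total pancreatic RNA was labelled for each array. Mist1, the product of Bhlha15, is a transcription factor that enzyme-secreting acinar cells need to mature, and caerulein is a cholecystokinin analogue that stimulates acinar secretion and, in repeated doses, causes experimental pancreatitis. The values come from whole tissue, in which fewer cells of a type and less RNA per cell cannot be told apart.

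The respiratory chain passes electrons from NADH (complex I) and succinate (complex II) through ubiquinone, complex III and cytochrome c to oxygen at complex IV. Complexes I, III and IV pump protons across the inner mitochondrial membrane, and complex V uses the gradient to make ATP. Acinar cells rely on this ATP for protein synthesis, calcium pumping and granule release. Apart from complex II, each complex combines subunits from the nucleus with others made inside the mitochondrion.

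Bhlha15 was read at 1601, 1619 and 1624.3 (brighter of its probe sets) on the wild type saline arrays and at 729.5 to 838.5 on the wild type caerulein arrays, against 38.3 to 106.8 on the 6 Mist1KO arrays. Array medians lay between 70.6 and 90.15, and the trimmed means between 151.1 and 151.4. The 50 brightest probe sets held 16.3% to 19.4% of the signal in wild type after saline, 14.1% to 17.2% after caerulein, 12.6% to 14.2% in Mist1KO after saline and 8.39% to 11.4% after caerulein. The 12 matched of 15 acinar marker genes summed to 199338 to 249859, 159422 to 224623, 140831 to 165221 and 82686 to 126107 in the same order of groups. The hybridization spikes had geometric means of 1074 to 1209, 759.5 to 1295, 681.2 to 909.3 and 370.7 to 460.3. Marker sums of other cells were 2306.5 to 2689, 2035.2 to 2425.6, 1455.9 to 1750.1 and 2549.1 to 2809.3 for 7 duct genes. Among these 7, Krt7 and Cftr were too dim to test. For 7 endothelial genes the sums were 1147.5 to 1226.9, 867.9 to 1103.7, 877.1 to 959.5 and 697.8 to 838.2. Of the brown adipocyte markers, cells rich in mitochondria, Ucp1, Cidea and Ppara were too dim to test. These measures moved with the groups, and their part in the results below was not tested.

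A level is the deposited linear signal. A difference is on the log2(signal + 18.7) scale, with its standard error and n = 3 per group, and it understates the change of dim genes. A gene rose or fell where the p-value of limma's moderated test, adjusted over all 15716 probe sets tested, was under 0.05. Of the 79 genes 78 were bright enough to be tested. Cox7a1 was not. The members were steadier than most probe sets, with a median SD between replicates of 0.17 on the log2 scale against 0.26 over all probe sets.

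After caerulein in wild type, 16 of 78 subunit genes fell and 0 rose. Of all probe sets 18.9% passed in this comparison, 9.19% rising and 9.74% falling, and the share of members that fell was 20.5%. Bright genes passed more often: among the 1196 genes at least as bright as the lower quartile of the members, 15.2% fell and 20.5% rose. These genes of like brightness have no upper limit of brightness, and members dimmer than that quartile are not among them. The members' falls were not far above those of this set, and their rises below. At an unadjusted p under 0.05 in limma 29 members were lower and 1, Uqcrc1, was higher. The share of all probe sets at that threshold was not counted. The median difference of the members was -0.23, against -0.14 over all probe sets. It was -0.10 with each array centred on its median and -0.37 with quantile normalization, where the median of all probe sets was -0.01 and -0.07.

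After caerulein in Mist1KO, 23 of 78 fell and 0 rose. Of all probe sets 24.0% passed, 10.5% rising and 13.4% falling, and of the genes of like brightness 23.0% rose and 27.5% fell, against 29.5% of the members falling. The share of falls was near that of the genes of like brightness. At an unadjusted p under 0.05 in limma 37 members were lower and 0 higher, again without a count over all probe sets. The median difference was -0.34, against -0.13 over all probe sets, and -0.22 against -0.01 with centred arrays. The number of falls depended on single arrays: it was 15 without Mist1KO saline replicate 1 or replicate 3, 11 without Mist1KO saline replicate 2 or Mist1KO caerulein replicate 1, and 14 without Mist1KO caerulein replicate 2.

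Between the genotypes after saline the subunit genes were mostly higher in Mist1KO. There 19 of 78 rose and 1 fell, and 61 of 78 differences were above 0. Of all probe sets 12.6% passed, 6.84% higher and 5.74% lower, and of the genes of like brightness 15.1% were higher and 12.5% lower. The members' shares were 24.4% higher and 1.28% lower. Their median difference was 0.19, against -0.05 over all probe sets. Without Mist1KO saline replicate 1 the members counted 12 higher and 2 lower, and with quantile normalization 17 higher and 5 lower. In the latter setting 7.68% of all probe sets were higher and 5.3% lower.

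Between the genotypes after caerulein 16 of 78 were higher in Mist1KO and 6 lower. Of all probe sets 20.2% passed, 10.0% higher and 10.2% lower. The members' share that was higher, 20.5%, lay near the 19.2% of genes of like brightness, and the share that was lower, 7.69%, lay below their 23.7%. The median was 0.12, against -0.05 over all probe sets. It was 0.19 without Mist1KO caerulein replicate 2, 0.20 with centred arrays and 0.24 with the mean of each gene's probe sets. The count of 6 lower members depended on single arrays: it was 2 without wild type caerulein replicate 2 or Mist1KO caerulein replicate 1 or 2, and 3 without wild type caerulein replicate 1 or 3. The 6 were Ndufs8 (-0.78), Cox4i2 (-0.77), Cox6a2 (-0.65), Sdhb (-0.41), Uqcrq (-0.39) and Uqcrc1 (-0.35). Of these, Cox6a2 kept its call under every alternative run, as did 12 of the 16 that were higher. Comparisons that share arrays, such as these with the caerulein comparisons above, are not independent of each other.

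**Figure D1:**
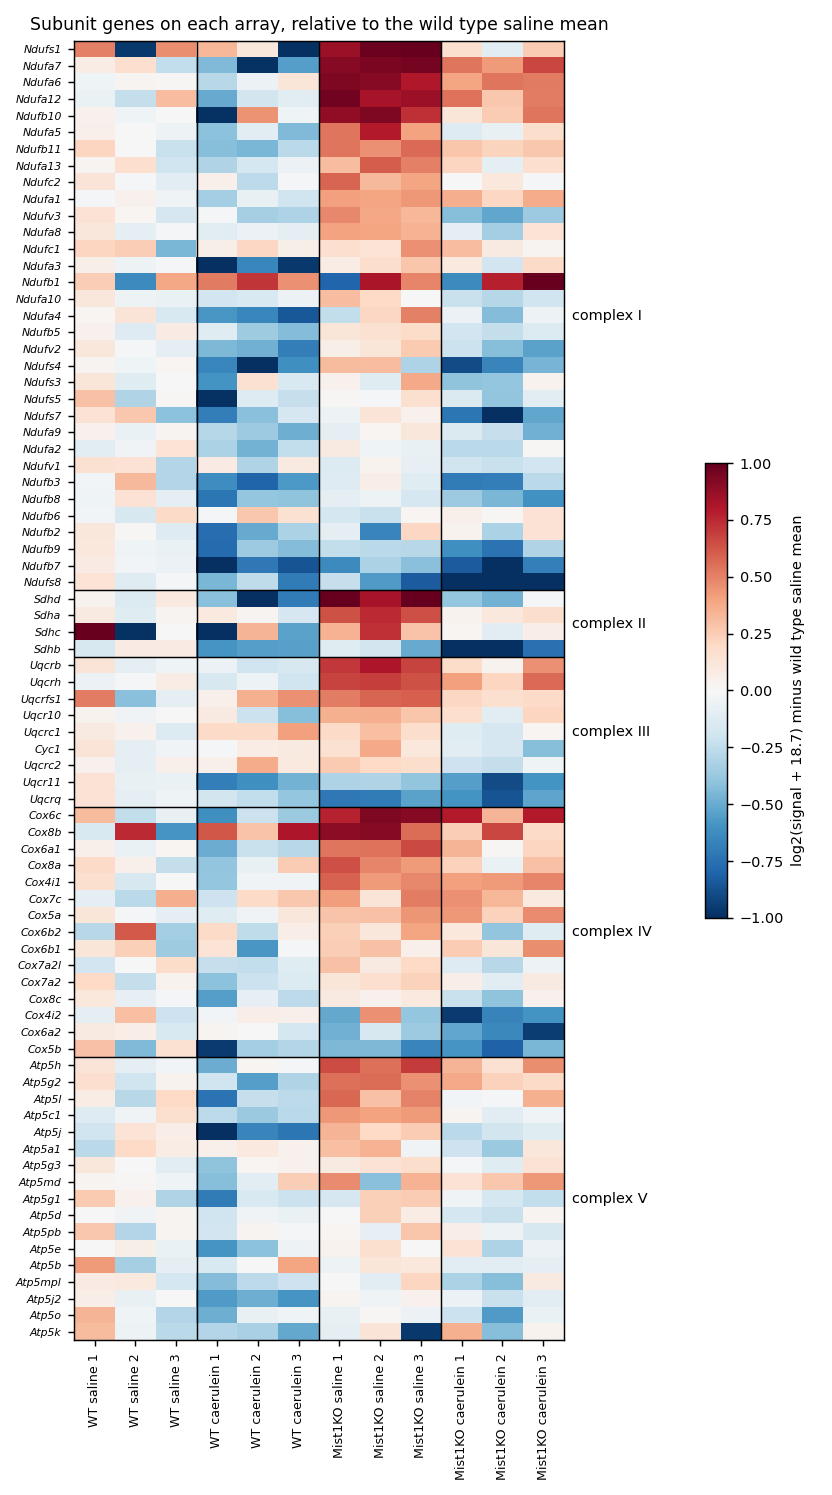
Log2(signal + 18.7) of each of the 78 tested subunit genes on each of the 12 arrays, minus its mean over the 3 wild type saline arrays, grouped by complex and ordered within each by the Mist1KO minus wild type difference after saline; the colour scale ends at 1 in both directions. Red prevails on the Mist1KO saline arrays, where 19 genes rose and 1 fell, and blue on the wild type caerulein arrays, where 16 fell and 0 rose.

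With caerulein in wild type 11 of 33 genes of complex I and 2 of 4 of complex II fell, against 1 of 9 of complex III, 0 of 15 of complex IV and 2 of 17 of complex V, each gene read by its brightest probe set. For complex IV, 3 genes were lower and 0 higher at an unadjusted p under 0.05 in limma, a threshold not counted over all probe sets. In Mist1KO the falls were 13, 3, 3, 2 and 2 in the same order. Of all probe sets 9.74% fell in wild type and 13.4% in Mist1KO, and of the genes of like brightness 15.2% and 27.5%. Among the 19 genes higher in Mist1KO after saline, 9 belonged to complex I, 2 to complex II, 2 to complex III, 3 to complex IV and 3 to complex V. The 1 lower gene belonged to complex III. Of all probe sets 6.84% were higher and 5.74% lower, and of the genes of like brightness 15.1% and 12.5%. After caerulein the 16 higher were 6 of complex I, 1 of complex III, 4 of complex IV and 5 of complex V. The 6 lower were 1 of complex I, 1 of complex II, 2 of complex III and 2 of complex IV. Of all probe sets 10.0% were higher and 10.2% lower, and of the genes of like brightness 19.2% and 23.7%. In each of the 4 comparisons a count near such shares is no result about its complex. The median differences with caerulein in wild type were -0.32, -0.55, -0.14, -0.15 and -0.30 for complexes I to V. In Mist1KO they were -0.37, -0.64, -0.35, -0.27 and -0.24. No test compared the complexes with each other.

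**Figure D2:**
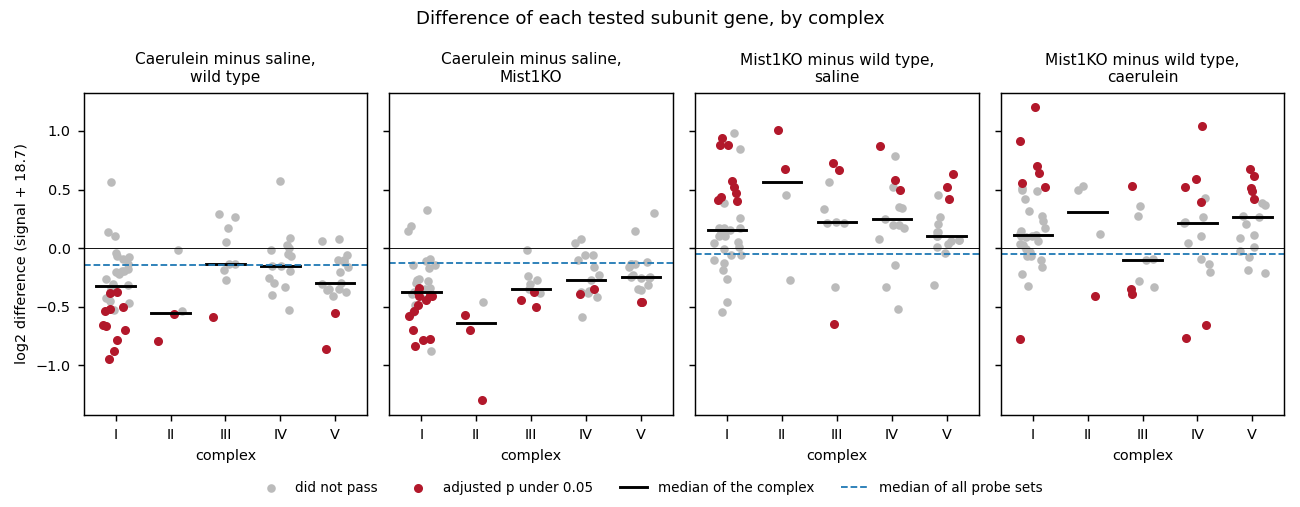
Difference of each tested subunit gene on the log2(signal + 18.7) scale (y axis) by complex (x axis) in the 4 comparisons; red points passed the adjusted p threshold of 0.05, black bars are the medians of the complexes and the dashed line is the median of all probe sets. Red points lie below 0 in both caerulein comparisons and mostly above 0 in the saline comparison of the genotypes.

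The start sites of genes that were higher together in Mist1KO after saline were read for short sequences known from respiratory genes. RefSeq windows of 250 bases before to 50 bases after the start (GRCm38.p6) were given for 64 of the 79 genes. Nuclear respiratory factor 1 (NRF1) is a transcription factor known to bind the promoters of many respiratory chain genes. Its motif (GCGC, any base, then TGCGC, read on both strands) stood in a window of 14 of these 64 genes (21.9%), against 5.19% of all 27025 genes with a window. Of the 19 genes that rose in Mist1KO after saline, 16 had a window and 8 of them held the motif (Ndufa5, Ndufa6, Sdha, Sdhd, Cox6a1, Atp5c1, Atp5g2 and Atp5h), as did 6 of 47 genes that did not pass. Of the genes that fell with caerulein in wild type 1 of 15 with a window held the motif, as did 13 of 48 that did not pass, and in Mist1KO 7 of 20 that fell and 7 of 43 that did not pass. After caerulein it stood in 4 of 14 genes higher in Mist1KO, 1 of 3 lower and 9 of 46 that did not pass. These shares were not tested. A match describes letters and is not a measured site.

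The 200 bases before the start are shown for 4 of those genes, from complexes II, IV and V, 5′ to 3′ on the gene's strand, with the matched letters in capitals. They are Sdha at chr13:74350241-74350440 (minus strand), Sdhd at chr9:50603850-50604049 (minus strand), Cox6a1 at chr5:115348959-115349158 (minus strand) and Atp5h at chr11:115419920-115420119 (minus strand). The first matched base lies at -98, -55 and -10 in Sdha, at -79 in Sdhd, at -162 and -117 in Cox6a1 and at -141 in Atp5h, counted from the start.
Sdha: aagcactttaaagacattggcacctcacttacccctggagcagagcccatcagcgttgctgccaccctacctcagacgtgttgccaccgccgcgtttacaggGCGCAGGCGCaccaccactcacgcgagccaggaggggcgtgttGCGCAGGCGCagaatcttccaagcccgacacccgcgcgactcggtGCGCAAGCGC
Sdhd: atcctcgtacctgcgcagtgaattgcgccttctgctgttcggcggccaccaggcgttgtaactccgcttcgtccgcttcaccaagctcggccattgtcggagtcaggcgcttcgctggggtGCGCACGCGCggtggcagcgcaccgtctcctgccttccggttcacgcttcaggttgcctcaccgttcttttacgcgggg
Cox6a1: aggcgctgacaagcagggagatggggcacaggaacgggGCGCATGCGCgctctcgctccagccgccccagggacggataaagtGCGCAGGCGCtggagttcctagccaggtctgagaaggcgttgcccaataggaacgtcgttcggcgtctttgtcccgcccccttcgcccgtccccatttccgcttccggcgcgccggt
Atp5h: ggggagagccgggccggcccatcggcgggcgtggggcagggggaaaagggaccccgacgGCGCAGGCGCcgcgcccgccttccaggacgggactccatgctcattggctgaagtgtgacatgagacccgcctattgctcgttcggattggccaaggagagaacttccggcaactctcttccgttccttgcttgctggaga
Sdha holds 3 copies within 100 bases of its start and Cox6a1 holds 2. Member windows were richer in G and C, with a median of 58.3% against 52.7% over all windows, and the part of base composition in these shares was not tested.

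Other letters were searched in the same windows on both strands. AAGATGGC, a core known for YY1, stood in 14.1% of the 64 genes against 3.19% of all genes. CCGGAAGT, known for ETS factors such as GABP, stood in 7.81% against 4.31%, and TCAAGGTCA, known for the estrogen-related receptors, in 3.12% against 0.466%. CAGCTG, an E-box that Mist1 can bind, stood in 9.38% of the members and 18.3% of all genes. CCAAT was found in 40.6% and 41.1%, TATAAA in 10.9% and 15.7%, and TGATGCAA, known for ATF4, in 0 of the members and 1.03% of all genes.

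Complex I receives electrons from NADH. The 6 genes with the largest changes in it were Ndufa7, Ndufb7, Ndufa3, Ndufa6, Ndufa12 and Ndufv3, all of them accessory subunits. Ndufa7, in the matrix arm, was read at 992.4, 1060.3 and 790.9 on the wild type saline arrays and 688.5, 466.2 and 636 on the wild type caerulein arrays. The Mist1KO arrays gave 1784.5, 1826.1 and 1846 (saline) and 1371.3, 1272.4 and 1501.8 (caerulein). No group overlapped another, with Mist1KO after saline highest and wild type after caerulein lowest. It was higher in Mist1KO by 0.94 ± 0.15 after saline (adjusted p = 0.00134) and by 1.20 ± 0.15 after caerulein (adjusted p = 8.97e-05). With caerulein in wild type the difference was -0.66 ± 0.15 (adjusted p = 0.00662), a call lost with the mean of its probe sets (-0.33, adjusted p = 0.0584). In Mist1KO it was -0.39 ± 0.15 (adjusted p = 0.0683).

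Ndufa12, a subunit of the matrix arm, read 602.2, 531.9 and 784 with saline and 439.8, 554.7 and 583.9 with caerulein in wild type. In Mist1KO it read 1248.3, 1130.2 and 1155.4 with saline and 930.2, 762.9 and 905.7 with caerulein. The Mist1KO saline arrays were above all others, and the Mist1KO caerulein arrays were above the wild type caerulein arrays. The genotype difference was 0.88 ± 0.15 after saline (adjusted p = 0.00235) and 0.70 ± 0.15 after caerulein (adjusted p = 0.00469). Ndufa6, a small matrix-side subunit, read 499.6, 524.9 and 520.4 with saline and 422.7, 494.9 and 561.5 with caerulein in wild type, and 1002.7, 984 and 908.9 with saline and 684.5, 754.3 and 748.2 with caerulein in Mist1KO. All 6 Mist1KO arrays lay above all 6 wild type arrays. Its genotype difference was 0.88 ± 0.12 after saline and 0.55 ± 0.12 after caerulein (adjusted p = 0.000382 and 0.00407).

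Ndufa3, a membrane-arm subunit, was low on the wild type caerulein arrays. It read 1003.9, 933 and 959.3 with saline and 464.5, 607.3 and 485.1 with caerulein in wild type, and 1016.8, 1093.2 and 1170.5 with saline and 1032.9, 844.6 and 1104.3 with caerulein in Mist1KO. The 3 wild type caerulein arrays were below the other 9, and the Mist1KO caerulein arrays overlapped both saline groups. The caerulein difference was -0.88 ± 0.13 in wild type and -0.14 ± 0.13 in Mist1KO, and the first passed (adjusted p = 0.000322 and 0.478). The interaction of genotype and injection, which tests that contrast itself, was 0.74 ± 0.18 (adjusted p = 0.0449). It was the only one of 78 members to pass, against 3.30% of all probe sets, and it was lost in 15 of 20 alternatives. Among these were 10 in which 1 array was left out, with adjusted p up to 0.111. At an unadjusted p under 0.05 in limma, the interaction was above 0 in 4 members and below 0 in 7, 11 in all. The share of all probe sets at that threshold was not counted. The second probe set of Ndufa3 gave -0.62 and -0.21 for the 2 caerulein comparisons. Its interaction of 0.42 did not pass (adjusted p = 0.258).

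Ndufb7, on the intermembrane-space side, read 1296.1, 1201.3 and 1170.5 with saline and 498.5, 737.2 and 661.4 with caerulein in wild type, and 778.8, 975.5 and 911 with saline and 678.8, 536.5 and 754.7 with caerulein in Mist1KO. On this probe set the wild type saline arrays were above all others, and the 2 caerulein groups overlapped. Its difference of -0.95 ± 0.16 with caerulein in wild type was the largest of the 78 genes in that comparison (adjusted p = 0.0008), while -0.43 ± 0.16 in Mist1KO and -0.46 ± 0.16 between the genotypes after saline did not pass (adjusted p = 0.0612 and 0.0733). The dimmer probe set of Ndufb7 also fell in wild type (-0.53, adjusted p = 0.00992) but gave 0.04 in Mist1KO. After caerulein it was higher in Mist1KO by 0.65 (adjusted p = 0.00287), where the brightest gave 0.06.

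Ndufv3, a small subunit of the NADH-oxidising module, showed another order. It read 1068.1, 980.5 and 859.7 with saline and 957.8, 763.9 and 776.7 with caerulein in wild type, and 1355.9, 1270 and 1222 with saline and 712.2, 669.5 and 748.1 with caerulein in Mist1KO. The Mist1KO saline arrays were the highest of the 12 and the Mist1KO caerulein arrays the lowest. Its fall with caerulein in Mist1KO was -0.84 ± 0.12 (adjusted p = 0.000177), and in wild type the difference was -0.22 ± 0.12 (adjusted p = 0.231). The interaction, -0.62 ± 0.17, did not pass (adjusted p = 0.0671). The rise between the genotypes after saline, 0.40 ± 0.12 (adjusted p = 0.0433), was lost without any 1 of 7 arrays: wild type saline replicate 2 or 3, Mist1KO saline replicate 1, 2 or 3, and Mist1KO caerulein replicate 1 or 2 (adjusted p 0.0525 to 0.138).

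The remaining calls in complex I were smaller or less stable. Ndufa1, a membrane-arm subunit, was higher in Mist1KO by 0.52 ± 0.10 after caerulein (adjusted p = 0.00277), with 3253, 2915.7 and 3271.8 against 1983.2, 2388.1 and 2197.2. Ndufb11, also in the membrane arm, was higher by 0.52 ± 0.12 after saline and 0.64 ± 0.12 after caerulein (adjusted p = 0.0122 and 0.0017). Its signals were 1332.8, 1146.6 and 977.5 with saline and 844.9, 825.5 and 943.7 with caerulein in wild type, and 1661, 1576.5 and 1704.4 with saline and 1392.6, 1334.3 and 1379.7 with caerulein in Mist1KO. These 3 calls held under all alternatives. Ndufa1, Ndufa5, Ndufa13 and Ndufc2 were higher in Mist1KO after saline by 0.41 to 0.58, and each lost its call on leaving out any 1 of 3 or 4 arrays (adjusted p up to 0.121).

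The smaller falls were spread over the membrane and matrix arms. With caerulein in wild type Ndufa4, Ndufa9, Ndufb3, Ndufb8, Ndufb9, Ndufb11 and Ndufs4 fell, with differences from -0.78 to -0.38. In Mist1KO Ndufa5, Ndufa6, Ndufa8, Ndufa10, Ndufa12, Ndufb5, Ndufb8, Ndufc2 and Ndufs4 fell, with differences from -0.78 to -0.34. Ndufs4, a subunit needed for the NADH-oxidising module to join, read 206.1, 195.1 and 205.2 with saline and 121.8, 86.1 and 125.5 with caerulein in wild type, and 256.5, 254.1 and 159.8 with saline and 99.9, 120.8 and 141.5 with caerulein in Mist1KO. Every one of these 16 calls was lost under at least 1 alternative, with adjusted p up to 0.214 in wild type and 0.218 in Mist1KO.

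Among the core subunits, which carry the flavin and the iron-sulfur clusters, none rose in any comparison by its brightest probe set. Ndufv2 fell by similar amounts in both genotypes, -0.54 ± 0.12 in wild type and -0.54 ± 0.12 in Mist1KO (adjusted p = 0.00676 and 0.00522). Its signal went from 857.9, 785 and 738.5 to 575.9, 562.9 and 484.1 in wild type and from 824, 863.9 and 952.6 to 679.7, 586 and 541.8 in Mist1KO, with no overlap in either. The call in Mist1KO was lost with the mean of its probe sets (-0.37, adjusted p = 0.0672). Ndufs7, which lies beside the ubiquinone site, fell by 0.79 ± 0.19 with caerulein in Mist1KO (adjusted p = 0.00717), from 599.9, 681.6 and 641.4 to 368.7, 302.7 and 429. In wild type its arrays overlapped and the difference was -0.42 ± 0.19 (adjusted p = 0.133). Its dimmer probe set fell in both, by 0.62 in wild type and 1.05 in Mist1KO (adjusted p = 0.0131 and 0.000229). Ndufs1, Ndufs3 and Ndufv1 passed in no comparison.

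Ndufs8, another core iron-sulfur subunit, cannot be given a direction between the genotypes. Its brightest probe set was lower in Mist1KO after caerulein, with a difference of -0.78 ± 0.17 (adjusted p = 0.00646), with 541.2, 694.6 and 797.4 against 1172.2, 1349.8 and 985. Of its 5 other probe sets, 4 were higher in that comparison, by 0.61 to 1.10, and all 4 passed. With the mean of its probe sets the difference was 0.42 and passed in the opposite direction (adjusted p = 0.0352). Within complex I, 6 of 12 Ndufa genes were higher in Mist1KO after saline and 5 of 12 after caerulein, and 1 of 10 Ndufb genes in each. Of all probe sets 6.84% were higher after saline and 10.0% after caerulein, and of the genes of like brightness 15.1% and 19.2%. With caerulein in wild type 4 of 12 Ndufa and 5 of 10 Ndufb genes fell, against 9.74% of all probe sets and 15.2% of the genes of like brightness. A count near such shares is no result about its family. The families were not tested against each other.

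Complex II oxidises succinate and is shared with the citric acid cycle. Of its 4 genes 3 passed in at least 1 comparison. Sdha, the flavin-carrying catalytic subunit, read 485.1, 416.3 and 463.9 with saline and 488.6, 463.5 and 402.8 with caerulein in wild type, which overlapped. In Mist1KO it read 714.7, 773.5 and 720.1 with saline and 465.5, 489.9 and 515.2 with caerulein. The Mist1KO saline arrays stood above the other 9, which overlapped one another. Sdha was higher in Mist1KO after saline by 0.67 ± 0.11 (adjusted p = 0.00208) and fell by 0.57 ± 0.11 with caerulein there (adjusted p = 0.00226). In wild type the caerulein difference was -0.01 ± 0.11, and the interaction of -0.56 ± 0.16 did not pass (adjusted p = 0.0804).

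Sdhd, a membrane anchor with part of the ubiquinone site, had the largest saline difference between the genotypes and the largest fall with caerulein in Mist1KO of the 78 genes. It read 349.8, 307.9 and 365.8 with saline and 250.5, 131.3 and 202.2 with caerulein in wild type, and 793.6, 618.2 and 707.4 with saline and 256.1, 239.5 and 335.8 with caerulein in Mist1KO. The Mist1KO saline arrays were again above all others, and the 2 caerulein groups overlapped. The genotype difference after saline was 1.01 ± 0.20 (adjusted p = 0.00534), a 2.01-fold higher value. With caerulein Sdhd fell by 1.30 ± 0.20 in Mist1KO (adjusted p = 0.000267). It fell by 0.79 ± 0.20 in wild type (adjusted p = 0.012), the latter lost with the mean of its probe sets (-0.59, adjusted p = 0.131).

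Sdhb, the iron-sulfur subunit, fell with caerulein in both genotypes. It read 1062.7, 1256.8 and 1259.4 with saline and 782.9, 803.9 and 808.9 with caerulein in wild type, and 1092.1, 1042.9 and 832.1 with saline and 571, 529.5 and 701.5 with caerulein in Mist1KO. The saline groups overlapped, and the Mist1KO caerulein arrays were the lowest. The caerulein difference was -0.56 ± 0.13 in wild type and -0.70 ± 0.13 in Mist1KO (adjusted p = 0.00959 and 0.00167). Its genotype difference after caerulein, -0.41 ± 0.13 (adjusted p = 0.0448), was lost in 12 of 21 alternatives (adjusted p up to 0.167). Sdhc, the other anchor, was too variable to place: its wild type saline arrays ran from 220.8 to 925.7 and it passed in no comparison. Its dimmer probe set was higher in Mist1KO after saline by 1.09 (adjusted p = 0.00985).

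Complex III passes electrons from ubiquinol to cytochrome c. Uqcrb, a small matrix-side subunit, read 4097.5, 3513.5 and 3631.3 with saline and 3598, 3261.9 and 3338 with caerulein in wild type, and 6103.8, 6553.4 and 5999.9 with saline and 4242.5, 3834.3 and 5148.3 with caerulein in Mist1KO. The Mist1KO saline arrays were above all others. It was higher in Mist1KO after saline by 0.73 ± 0.12 (adjusted p = 0.00205) and fell by 0.50 ± 0.12 with caerulein there (adjusted p = 0.00808). Uqcrh, the hinge protein beside cytochrome c1, read 571.1, 586.5 and 627.9 with saline and 530.4, 574.1 and 516.7 with caerulein in wild type, and 961.3, 973.9 and 935.3 with saline and 797.1, 693.7 and 887.3 with caerulein in Mist1KO. All Mist1KO arrays lay above all wild type arrays. Its genotype difference was 0.67 ± 0.11 after saline and 0.53 ± 0.11 after caerulein (adjusted p = 0.00194 and 0.00405).

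Uqcrq, another small subunit, was the only member lower in Mist1KO after saline. It had signals of 1316.9, 1109.4 and 1153.3 with saline and 1046.1, 1002.5 and 903.5 with caerulein in wild type, and 718.1, 725.5 and 813.9 with saline and 778.3, 647 and 819.6 with caerulein in Mist1KO. All 6 Mist1KO arrays were below all 6 wild type arrays. The difference was -0.65 ± 0.12 after saline (adjusted p = 0.00387) and -0.39 ± 0.12 after caerulein (adjusted p = 0.0345). The mean of its 4 probe sets gave -0.45 after saline, which did not pass (adjusted p = 0.0676), and 0.21 after caerulein (adjusted p = 0.358). Leaving out wild type caerulein replicate 1 or 2, or Mist1KO caerulein replicate 1 or 2, also ended the caerulein call (adjusted p 0.0642 to 0.146).

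Uqcr11, a very small subunit, was the only gene of complex III to fall with caerulein in wild type, from 610, 520.4 and 523.4 to 333.2, 353.3 and 391.9 (-0.59 ± 0.13, adjusted p = 0.00496). In Mist1KO it read 441.3, 441.9 and 413.2 after saline and 368.4, 287.7 and 357 after caerulein, and the difference did not pass (adjusted p = 0.0628). Cyc1, the cytochrome c1 that carries the haem, fell by 0.45 ± 0.12 with caerulein in Mist1KO (adjusted p = 0.0153), from 917.2, 1080.7 and 890.1 to 764.9, 732.8 and 610.3, a call lost without Mist1KO saline replicate 2 or Mist1KO caerulein replicate 3 (adjusted p 0.0569 to 0.0752). The core proteins are Uqcrc1 and Uqcrc2. With caerulein Uqcrc1 differed by 0.26 ± 0.11 in wild type and -0.31 ± 0.11 in Mist1KO, and Uqcrc2 by 0.17 ± 0.12 and -0.37 ± 0.12. Of these 4 values only the last passed (adjusted p = 0.0329), and it was lost without any 1 of the 3 Mist1KO saline arrays or Mist1KO caerulein replicate 1 or 2 (adjusted p 0.0685 to 0.113). Neither interaction passed (adjusted p = 0.0647 and 0.1).

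**Figure D3:**
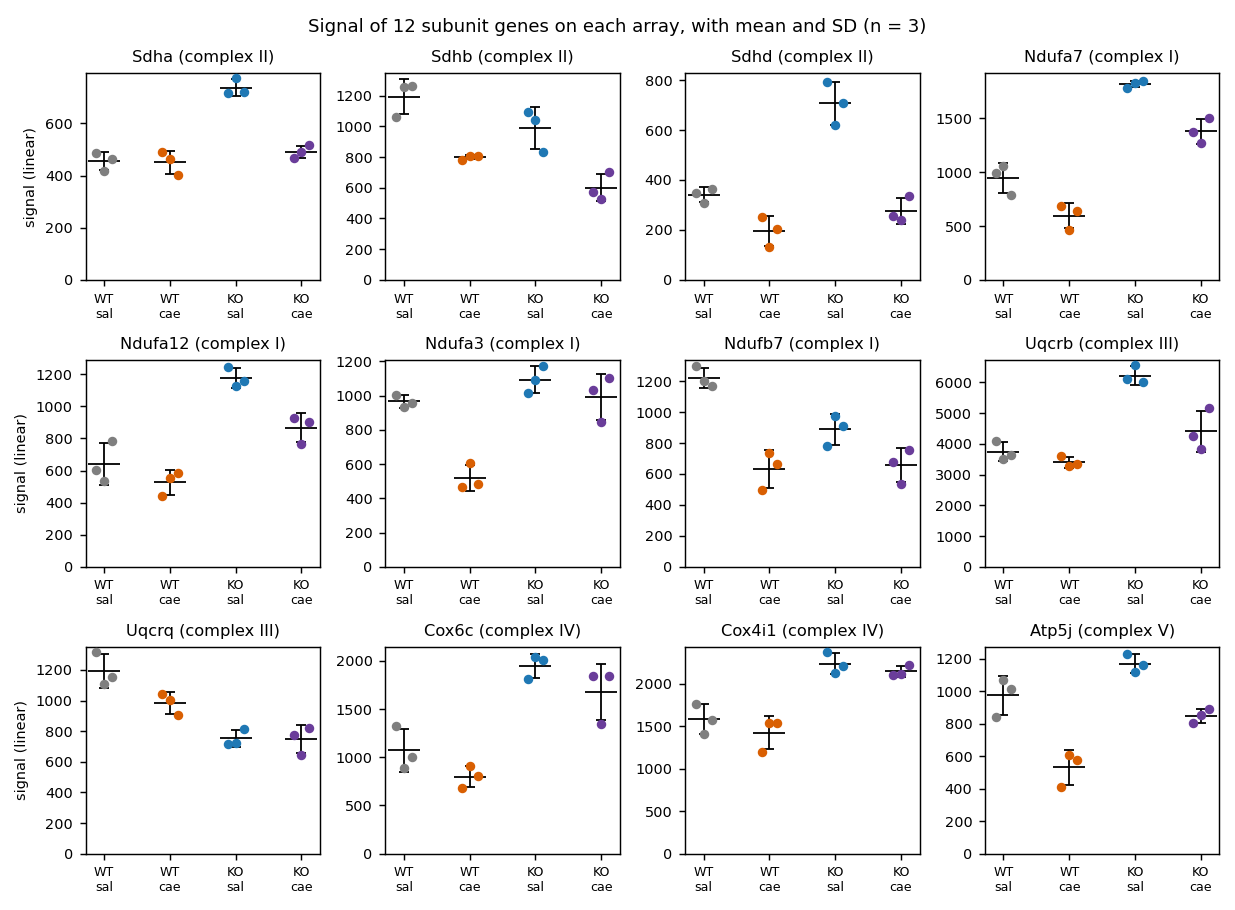
Linear signal (y axis) on each array for 12 subunit genes of complexes I to V, by group (WT, wild type; KO, Mist1KO; sal, saline; cae, caerulein); points are arrays, the long bar is the mean and the error bars are the SD of 3 arrays. Sdha, Sdhd and Uqcrb are highest on the Mist1KO saline arrays, Ndufa3 is lowest on the wild type caerulein arrays, and Cox4i1, Cox6c and Ndufa7 are higher on all Mist1KO than on all wild type arrays.

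Complex IV, cytochrome c oxidase, passes electrons to oxygen. Read by the brightest probe set and with Ndufa4 apart, no gene of it passed with caerulein in wild type. Dimmer probe sets of 3 of its genes fell there: Cox5b (2 of them, -0.59 and -0.66), Cox6b1 (-0.53) and Cox7a2 (-0.48), with adjusted p of 0.0323, 0.00358, 0.0114 and 0.0156. Cox6c, a small nuclear-encoded subunit, read 1322, 889.3 and 1001.4 with saline and 683.1, 906.5 and 810.2 with caerulein in wild type, and 1809.2, 2037.3 and 2006.6 with saline and 1844.6, 1345.3 and 1846.2 with caerulein in Mist1KO. All Mist1KO arrays were above all wild type arrays. It was higher in Mist1KO by 0.87 ± 0.16 after saline and 1.05 ± 0.16 after caerulein (adjusted p = 0.00434 and 0.000595). Cox5a, a matrix-side subunit, was higher after caerulein (0.40 ± 0.11, adjusted p = 0.0222), but not without wild type caerulein replicate 1 or 2 or Mist1KO caerulein replicate 1 or 3 (adjusted p 0.065 to 0.0801).

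Several subunits of this complex exist as a form found in most tissues and a form of muscle, lung or testis. Cox4i1, the common form of subunit 4, read 1760.9, 1408.9 and 1578.5 with saline and 1200, 1542.1 and 1539.5 with caerulein in wild type, and 2375.8, 2129.5 and 2204.9 with saline and 2103.8, 2120.5 and 2216.8 with caerulein in Mist1KO. Its genotype difference was 0.50 ± 0.12 after saline and 0.59 ± 0.12 after caerulein (adjusted p = 0.0179 and 0.00374). The saline call was lost without wild type saline replicate 2 or Mist1KO saline replicate 1 or 3 (adjusted p 0.0525 to 0.0723). Cox4i2, the lung form, went the other way after caerulein: 113.4, 142.8 and 150.5 in Mist1KO against 232.6, 248.8 and 247 in wild type, without overlap. That difference of -0.77 ± 0.23 (adjusted p = 0.0281) was lost without any 1 of 5 of those 6 arrays, all but Mist1KO caerulein replicate 3 (adjusted p 0.0525 to 0.107).

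Cox6a1, the common form of subunit 6a, read 2429.7, 2234.6 and 2373.3 with saline and 1660, 2001.8 and 1930 with caerulein in wild type, and 3397.1, 3424.6 and 3716.3 with saline and 2977.6, 2364.1 and 2724.1 with caerulein in Mist1KO. Within each injection the genotypes did not overlap. It was higher in Mist1KO by 0.58 ± 0.11 after saline and 0.52 ± 0.11 after caerulein (adjusted p = 0.00594 and 0.00559). Cox6a2, the heart and skeletal muscle form, read 192.7, 189.5 and 160.8 with saline and 183.8, 179.9 and 157.6 with caerulein in wild type, and 124.1, 159.5 and 136 with saline and 120, 108.5 and 84.3 with caerulein in Mist1KO. The Mist1KO caerulein arrays were below the other 9, and the difference after caerulein was -0.65 ± 0.16 (adjusted p = 0.0121). After saline it was -0.34 ± 0.16 (adjusted p = 0.198).

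Cox7a1, the muscle form of subunit 7a, was too dim for the filter. Its signals were 12.8, 7.3 and 4.1 with saline and 6, 8.2 and 4.4 with caerulein in wild type, and 23.1, 24.5 and 28.4 with saline and 30.5, 40.1 and 43.6 with caerulein in Mist1KO. Every Mist1KO array was above every wild type array. Without the filter the difference was 0.73 ± 0.19 after saline and 1.19 ± 0.19 after caerulein (adjusted p = 0.0314 and 0.00106). Of 11 striated muscle markers 3 were bright enough to be tested. The summed signal of all 11 was 344.9 to 430.3 in wild type after saline and 351.8 to 381.4 after caerulein. In Mist1KO it was 360.8 to 419 after saline and 449.8 to 535 after caerulein. The defining muscle genes Acta1, Myh1, Myh2 and Actc1 were among the 8 too dim to test, which these sums include.

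The other pairs gave no calls between the genotypes by their brightest probe sets. Cox7a2, the common form of subunit 7a, differed by 0.17 after saline and 0.27 after caerulein. Cox7a2l, which helps to join complexes III and IV, fell by 0.35 ± 0.12 with caerulein in Mist1KO (adjusted p = 0.0459), a call lost on leaving out any 1 of 9 arrays (adjusted p 0.0502 to 0.168). For subunit 8, Cox8a, the common form, differed by 0.52 after saline and 0.22 after caerulein (adjusted p = 0.0542 and 0.384). Another probe set of Cox8a, with a mean signal of 807.3 and the suffix x that marks probes shared with other transcripts, was higher in Mist1KO by 2.51 after saline and 2.29 after caerulein (adjusted p = 0.000438 and 0.000363). Cox8a therefore has no settled size of difference between the genotypes. Cox8b, the muscle form, was dim at 9.4 to 60.9. The probe set annotated to Cox8c, known as a testis form, read 593.2 to 944.3 on all arrays and passed in no comparison. By the brightest probe set Cox6b1 and its testis form Cox6b2 did not pass either, nor did Cox5b or Cox7c. The second probe set of Cox6b1, nearly as bright (mean signal 1358 against 1624), was higher in Mist1KO by 0.64 after saline and 0.82 after caerulein (adjusted p = 0.00653 and 0.000622). Cox5b has 2 dimmer probe sets with the suffix x that passed. Of these, 1 was higher by 0.58 after saline and 0.73 after caerulein (adjusted p = 0.0464 and 0.0106) and another by 0.42 after caerulein (adjusted p = 0.04), while the brightest gave -0.52 and -0.09.

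Complex V, ATP synthase, has a catalytic head, a rotor and a peripheral stalk that holds the head still. The head subunits Atp5a1 and Atp5b passed in no comparison. Atp5j, the coupling factor 6 of the peripheral stalk, read 840.3, 1066.8 and 1014.6 with saline and 409.5, 605.9 and 578.3 with caerulein in wild type, and 1230.4, 1116.8 and 1158.3 with saline and 801.4, 850.1 and 889.7 with caerulein in Mist1KO. The wild type caerulein arrays were below the other 9. The caerulein difference was -0.86 ± 0.14 in wild type (adjusted p = 0.00081), and Mist1KO was higher after caerulein by 0.67 ± 0.14 (adjusted p = 0.00465). In Mist1KO it was -0.46 ± 0.14 (adjusted p = 0.033), lost on leaving out any of the 3 Mist1KO saline arrays or Mist1KO caerulein replicate 1 or 2 (adjusted p 0.0606 to 0.111).

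Atp5j2, subunit f in the membrane, followed a like order with little spread. It read 1577.1, 1430.9 and 1511.4 with saline and 1008, 1067.9 and 993.1 with caerulein in wild type, and 1534.6, 1462.5 and 1549.7 with saline and 1446.3, 1284.8 and 1395.4 with caerulein in Mist1KO. Again the wild type caerulein arrays were below all others. The caerulein difference in wild type was -0.55 ± 0.10 (adjusted p = 0.0012), the genotype difference after caerulein was 0.42 ± 0.10 (adjusted p = 0.00727), and the interaction of 0.41 ± 0.14 did not pass (adjusted p = 0.131).

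Atp5h, subunit d of the peripheral stalk, read 1259.8, 1073.7 and 1131.2 with saline and 812.4, 1165.8 and 1143 with caerulein in wild type, and 1822, 1695 and 1885.5 with saline and 1463.9, 1285.6 and 1599.7 with caerulein in Mist1KO. All Mist1KO arrays were above all wild type arrays. The difference was 0.63 ± 0.14 after saline and 0.48 ± 0.14 after caerulein (adjusted p = 0.0112 and 0.0266), the latter lost without wild type caerulein replicate 1 or Mist1KO caerulein replicate 1 or 3 (adjusted p 0.0765 to 0.0962). Atp5c1, the gamma subunit at the rotor's centre, fell with caerulein in Mist1KO, from 1038.6, 1011.8 and 1030.6 to 778.7, 708.7 and 745.3 (-0.46 ± 0.10, adjusted p = 0.00597), a call lost with the mean of its probe sets (-0.21, adjusted p = 0.472). Atp5l, subunit g, was higher in Mist1KO after caerulein by 0.52 ± 0.17 (adjusted p = 0.0473), and lost the call on leaving out any 1 of 9 arrays (adjusted p 0.0535 to 0.174).

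Subunit c, which forms the rotor ring, is made from 3 genes with the same mature protein. Of these, Atp5g2 was higher in Mist1KO and the others did not pass. Atp5g2 read 865.2, 664.2 and 784.4 with saline and 664.4, 516.6 and 619.4 with caerulein in wild type, and 1132.9, 1138.9 and 1060.5 with saline and 1003, 902.8 and 878.8 with caerulein in Mist1KO, with all Mist1KO arrays above all wild type arrays. The genotype difference was 0.52 ± 0.13 after saline and 0.62 ± 0.13 after caerulein (adjusted p = 0.0166 and 0.00351). With its second, dim probe set averaged in, these became -0.00584 and 0.30, and neither passed. The saline call was also lost without wild type saline replicate 2 or Mist1KO saline replicate 1 or 2 (adjusted p 0.0521 to 0.0682). Atp5g1 differed by 0.10 and 0.20, and Atp5g3 by 0.14 and 0.12. The difference among the 3 genes was not tested.

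Most calls that could be checked on another probe set of the gene pointed the same way. With caerulein in wild type all 9 called genes with other tested probe sets had them all in the same direction, and 7 had another that passed. In Mist1KO this held for 13 of 15, with 7 passing, and the exceptions were Ndufs8 and Atp5c1. Between the genotypes it held for 13 of 14 after saline, with 9 passing, and for 9 of 12 after caerulein, with 7 passing. Genes without a call can have one on a dimmer probe set. Of the 62 tested probe sets that were not a gene's brightest, 11, from 8 genes, fell with caerulein in wild type where the brightest did not pass, and 3, from 3 genes, did so in Mist1KO. Between the genotypes such probe sets were all higher in Mist1KO, 10 from 9 genes after saline and 9 from 8 genes after caerulein. Atp5d and Atp5pb were among them in both genotype comparisons. Some of the brightest probe sets carry a suffix that marks shared probes: x for 5 of the 79 genes (Ndufa3, Ndufa12, Sdhc, Cox5b and Atp5k) and s for 10, among them Uqcrq, Atp5c1 and Atp5j2. In all, 46 of 78 genes passed by their brightest probe set in at least 1 of the 5 contrasts, 23 of 33 in complex I, 3 of 4 in complex II, 7 of 9 in complex III, 7 of 15 in complex IV and 6 of 17 in complex V. Of all probe sets 12.6% to 24.0% passed in each of the 4 group comparisons. Their share in at least 1 contrast was not counted, so these counts are no result about the members. The 32 that passed in none were 10 of complex I (Ndufa2, Ndufb1, Ndufb2, Ndufb6, Ndufb10, Ndufc1, Ndufs1, Ndufs3, Ndufs5 and Ndufv1), Sdhc, Uqcr10 and Uqcrfs1, 8 of complex IV and 11 of complex V (Atp5a1, Atp5b, Atp5d, Atp5e, Atp5g1, Atp5g3, Atp5k, Atp5md, Atp5mpl, Atp5o and Atp5pb). Among them Ndufs1 ran from 17.6 to 188.5 over the 12 arrays and Ndufb1 from 14.7 to 128.6.

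Each array was also summarised over the module. Taken as the median over the 78 genes relative to the wild type saline mean, the 3 Mist1KO saline arrays stood at 0.21, 0.20 and 0.26, and the wild type caerulein arrays at -0.37, -0.20 and -0.19. The Mist1KO caerulein arrays stood at -0.04, -0.18 and 0.03. After subtracting the same median over all probe sets, these became 0.27, 0.22 and 0.29, then -0.28, -0.08 and -0.05, then 0.15, 0.05 and 0.17. The Mist1KO saline arrays were the highest on both measures. Wild type caerulein replicate 1 was the lowest on both, and the other 2 arrays of that group were close to all probe sets on the second.

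**Figure D4:**
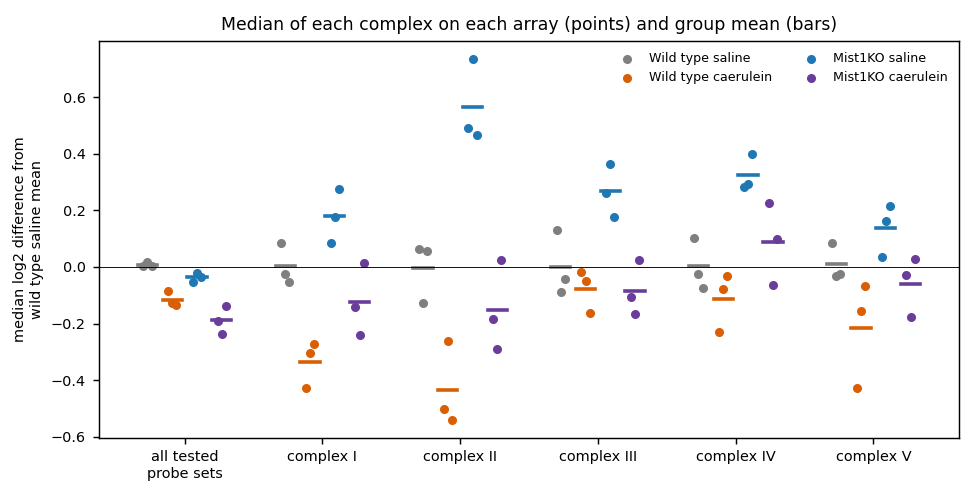
Median over the genes of each complex, and over all tested probe sets, of log2(signal + 18.7) on each array minus the wild type saline mean (y axis); points are arrays, bars are group means, and colours are the 4 groups. In each complex the Mist1KO saline group has the highest mean, while all probe sets lie between -0.24 and 0.02.

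Genes that serve the same organelle were read from lists of other mitochondrial functions. Each call below given with a value held in all alternatives run for it. The counts stand against the shares of all probe sets given above: 9.19% rose and 9.74% fell with caerulein in wild type, 10.5% and 13.4% in Mist1KO, and 6.84% were higher and 5.74% lower in Mist1KO after saline. A count near or below these shares is no result about its list. The 12 tested carriers of electrons, phosphate and adenine nucleotides were the list with the largest share higher in Mist1KO after saline, 6 of 12, with none lower. Slc25a4, the muscle and heart form of the ATP/ADP carrier, was higher by 1.77 ± 0.20 after saline and 1.16 ± 0.20 after caerulein (adjusted p = 0.000124 and 0.00128). Atpif1, the inhibitor of ATP synthase running in reverse, was higher by 1.38 ± 0.18 and 0.93 ± 0.18 (adjusted p = 0.000322 and 0.0022). With caerulein in Mist1KO 4 of the 12 fell and 1 rose. The falls included Etfa (-1.10 ± 0.16) and Etfdh (-1.25 ± 0.18), which pass electrons from fatty acid oxidation to ubiquinone (adjusted p = 0.000201 and 0.000202).

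Of 17 pyruvate dehydrogenase and citric acid cycle genes 8 were higher and 1 lower in Mist1KO after saline, and with caerulein 9 fell and 1 rose in Mist1KO and 1 fell and 1 rose in wild type. Pdha1, a subunit of pyruvate dehydrogenase, was higher by 0.81 ± 0.13 after saline (adjusted p = 0.0015), and Pdhb, its partner, fell by 1.11 ± 0.12 with caerulein in Mist1KO (adjusted p = 2.14e-05). Idh2, a mitochondrial isocitrate dehydrogenase, was lower in Mist1KO after caerulein, at -1.67 ± 0.14 (adjusted p = 5.01e-06), with an interaction of -1.08 ± 0.20 (adjusted p = 0.0127).

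Of 29 assembly factors of the respiratory chain 2 fell with caerulein in wild type, below the 9.74% of all probe sets, and 7 in Mist1KO, and 4 were higher and 1 lower in Mist1KO after saline. Cox17, a copper chaperone for complex IV, was higher in Mist1KO after saline by 0.89 ± 0.20 and fell by 1.34 ± 0.20 with caerulein there (adjusted p = 0.0117 and 0.000233). Of 7 tested genes of ubiquinone synthesis, Coq8b, a kinase-like regulator, rose with caerulein by 1.57 ± 0.16 in wild type and 2.27 ± 0.16 in Mist1KO, and Coq9, a lipid-binding protein of the same pathway, fell by 1.80 ± 0.18 in Mist1KO (adjusted p = 1.32e-05, 4.24e-07 and 9.86e-06). Of 72 mitochondrial ribosomal protein genes 12 fell with caerulein in wild type, 15 fell and 1 rose in Mist1KO, and 5 were higher in Mist1KO after saline, near the 6.84% of all probe sets.

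Of 17 regulators of mitochondrial biogenesis 2 rose and 1 fell with caerulein in wild type, 1 rose and 4 fell in Mist1KO, and 4 were higher in Mist1KO after saline. Pprc1, a coactivator of the PGC-1 family, rose with caerulein in wild type by 1.81 ± 0.20 (adjusted p = 2.97e-05) and was lower in Mist1KO than in wild type after caerulein, at -0.92 ± 0.20 (adjusted p = 0.0054). Ppargc1b, another member of that family, was higher in Mist1KO after saline by 1.62 ± 0.35 and fell by 1.80 ± 0.35 with caerulein there (adjusted p = 0.00883 and 0.00176). Its signals were 36.9, 26.5 and 48 with saline and 22.4, 21 and 30.2 with caerulein in wild type, and 111.2, 134.6 and 228.4 with saline and 15.8, 64.9 and 22 with caerulein in Mist1KO. The 3 Mist1KO saline arrays were above the other 9. Ppargc1a fell by 1.12 ± 0.24 with caerulein in Mist1KO (adjusted p = 0.00349). Nrf1, whose product is known to bind the motif shown above, differed by -0.25 ± 0.13 between the genotypes after saline, in the direction of less in Mist1KO, and did not pass (adjusted p = 0.204).

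Of 13 chaperones and proteases of the mitochondrion 4 rose and 1 fell with caerulein in wild type, and 2 fell in Mist1KO. Between the genotypes 3 were higher and 2 lower in Mist1KO after saline, and 1 was higher and 3 lower after caerulein. Of all probe sets 10.0% were higher and 10.2% lower after caerulein. Htra2, a protease, was lower in Mist1KO, at -2.21 ± 0.29 after saline and -2.59 ± 0.29 after caerulein (adjusted p = 0.000402 and 4.77e-05). Hspa9, the mitochondrial Hsp70, rose in wild type by 1.71 ± 0.15 (adjusted p = 4.45e-06), differed by 0.43 ± 0.15 in Mist1KO (adjusted p = 0.0526), and had an interaction of -1.27 ± 0.22 (adjusted p = 0.00622). Clpx, the unfolding subunit of the ClpXP protease, fell by 1.72 ± 0.25 with caerulein in Mist1KO (adjusted p = 0.000167). Of 19 protein import genes 5 were higher in Mist1KO after saline, among them Timm13 (0.76 ± 0.14, adjusted p = 0.00331), and with caerulein 2 rose and 1 fell in wild type and 1 rose and 3 fell in Mist1KO.

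**Figure D5:**
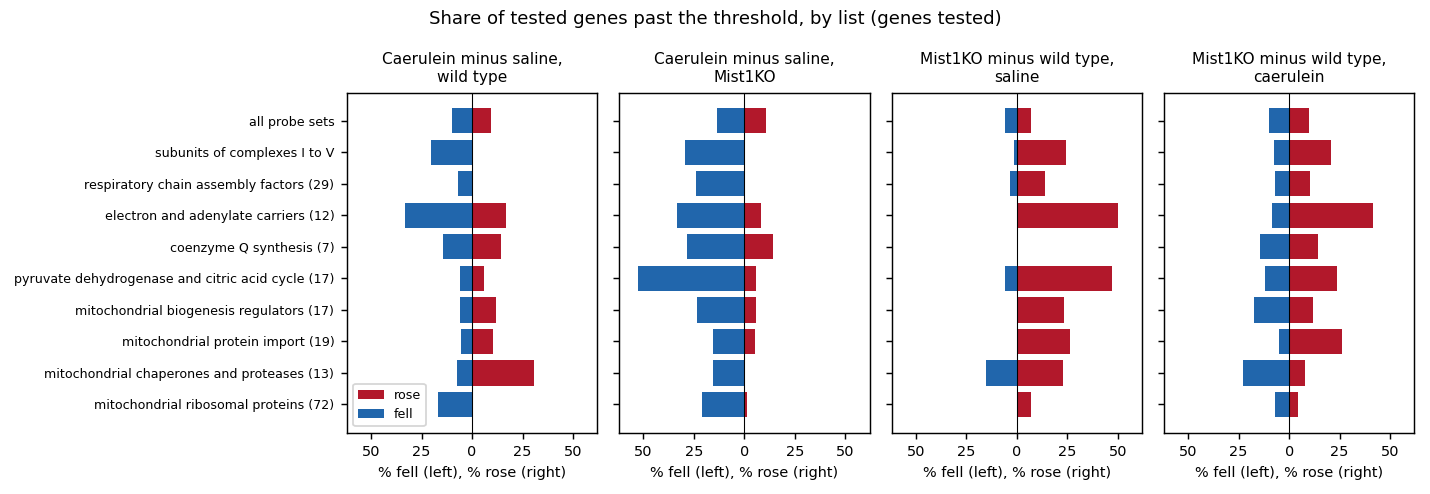
Share of the tested genes of each list that rose (red, right) or fell (blue, left) at an adjusted p under 0.05 in each of the 4 comparisons, in percent, with the number tested in parentheses; the top 2 bars are all 15716 probe sets and the 78 subunit genes. The subunit genes have blue bars alone in both caerulein comparisons and mostly red after saline between the genotypes; the carriers and citric acid cycle genes show the largest red bars there.

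Of the acinar markers 2 of 12 fell with caerulein in wild type and 11 of 12 in Mist1KO, against 9.74% and 13.4% of all probe sets. In Mist1KO 2 of 12 were lower after saline and 10 of 12 after caerulein, against 5.74% and 10.2%. The arrays on which most subunit genes were higher, those of Mist1KO after saline, had a lower acinar marker sum than the wild type saline arrays, with no overlap. Among these markers Rbpjl and Ptf1a differed by 0.34 and 0.25 after saline, in the direction of more in Mist1KO. Neither passed, and the other markers tested lay below 0. The scaling of the arrays bears on every count above. Among all probe sets that passed, 48.5% were rises with caerulein in wild type and 43.9% in Mist1KO, and 54.4% and 49.7% were higher in Mist1KO after saline and after caerulein. With each array centred on its median these became 67.8%, 59.7%, 71.5% and 61.7%, and the median of all probe sets moved from -0.14 to -0.01 with caerulein in wild type. The members then counted 1 rise (Uqcrc1, 0.39, adjusted p = 0.0264) and 12 falls in wild type, 11 falls in Mist1KO, 25 higher and 1 lower in Mist1KO after saline, and 20 higher and 3 lower after caerulein. Of all probe sets with centred arrays 11.2% rose and 5.32% fell with caerulein in wild type, and 12.6% and 8.51% in Mist1KO. Between the genotypes 8.90% were higher and 3.55% lower in Mist1KO after saline, and 12.2% and 7.57% after caerulein.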

How the data were processed

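Each of the 12 arrays was assigned to 1 of 4 groups from the genotype and injection named in its title, and none was left out. The deposited values are signal intensities on a linear scale. The authors' scaling is seen in the values alone, as equal trimmed means (2% off each end), and the summarisation software was not given in the sources used here. Of 22516 probe sets, 64 were controls, 20240 had 1 symbol, 682 several and 1530 none. Symbols came from the platform annotation and promoter windows from RefSeq (GRCm38.p6).

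Before log2, 18.7 (the 20th percentile of the values) was added to each. Controls and probe sets at or below the 30th percentile of mean log2 signal were left out, which left 15716. Group means over all 12 arrays were fitted in limma 3.58.1 (R 4.3.3; lmFit, and eBayes with an intensity trend; 8 residual and 5.75 prior degrees of freedom), tested on simulated data. Moderated p-values for a change in either direction had a Benjamini-Hochberg adjustment over the whole table and a threshold of 0.05. Figures used matplotlib 3.10.9 in Python 3.11.15. The number of arrays limits the precision.

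All members could be named. Full values went to up to 6 genes per complex with the largest difference among those that passed. Pathway genes with a call were picked from the up to 3 largest that passed per list and comparison. Those picked were not always the largest. Some that held in all alternatives, such as Tfb1m, Hspe1 and the interaction of Myc, were given no value. Other members with values, such as Ndufs8, Sdhc, Ndufv2 and Uqcrc1, were picked after those were seen, as was Nrf1. The members and lists were chosen with earlier results of these data known. The comparison with genes of like brightness was added after seeing the data. Alternatives were the offset, the filter, quantile or median scaling, no trend, the compared groups alone, a replicate block, the mean of a gene's tested probe sets and each array left out. Same-numbered arrays did not deviate together (18 pairs, correlations -0.104 to 0.0452), so the numbers were not taken as pairs.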

Additional observations from a re-analysis of the deposited data

Results flagged for a closer look

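Ndufa3 had an effect of caerulein that differed between the genotypes by a test of that difference itself, the interaction of genotype and injection in limma, at 0.74 on the log2 scale (adjusted p = 0.0449). It was the only one of 78 members with such a result, against 3.30% of all probe sets, and it passed narrowly. The call was lost in 15 of 20 alternatives, with adjusted p up to 0.114. On the second probe set of Ndufa3 the interaction was 0.42 and did not pass (adjusted p = 0.258).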

How the results depend on the processing

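Of 82 gene calls in the 5 contrasts, 37 held under every alternative: 7 of 16 with caerulein in wild type, 6 of 23 in Mist1KO, 11 of 20 and 13 of 22 between the genotypes after saline and caerulein, and 0 of 1 for the interaction. No median over the members changed sign. With the mean of a gene's tested probe sets 3 calls turned round: Atp5g2 after saline (-0.00584), Ndufs8 after caerulein (0.42) and Uqcrq after caerulein (0.21), all Mist1KO against wild type. Quantile normalization raised the calls with caerulein to 31 in wild type (from 16) and to 37 in Mist1KO (from 23), all of them falls. Of all probe sets 9.21% fell in wild type in that setting and 11.2% in Mist1KO, against 9.74% and 13.4% in the main fit. In Mist1KO the members' calls with caerulein numbered 11 with arrays centred on the median and 14 without the intensity trend. The interaction had 0 calls without the filter, with arrays centred, without the trend, with the replicate block and with the mean of probe sets. Leaving out 1 array gave 12 to 16, 11 to 26, 14 to 23 and 15 to 22 calls in the 4 group comparisons, in the order above, and 0 to 1 for the interaction.

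The replicate numbers did not pair the arrays: 0 of 18 same-numbered pairs had a correlation over 0.1, and 2 of 12 arrays correlated best with their own number. With the number as a replicate block, 14, 20, 19 and 21 members passed in the 4 comparisons. These values carry no detection call, so signals of dim genes such as Cox7a1 and Ndufb1 have no stated background.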
